A study of Homo sapiens with 6 samples.

Results

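The chromatin modifiers and remodelers described here are the 100 genes whose symbols start with KDM, HDAC, SIRT, EZH, SETD, DNMT, SMARC or ARID, or with KAT, BRD, CHD or TET and a digit, and whose mean deposited value over 6 RNA-seq libraries was at least 50. They were taken from 12654 listed genes, of which 12413 reached that mean and were tested. Of 101 symbols that matched, SMARCA5-AS1 was left out with a mean of 35.7, and the members nearest above the limit were SIRT5 (57.8), SIRT4 (67.0) and CHD5 (79.5). The libraries came from LX2, a line of human hepatic stellate cells. Cells of the shMETTL3-1 and shMETTL3-2 groups carried a pLKO.1 lentiviral short hairpin RNA against METTL3, 1 hairpin per group, and shLuc control cells carried a hairpin against firefly luciferase in the same vector. Each group had 2 libraries, and all cells had been exposed to virus with polybrene and selected with puromycin. The labels do not state whether a pair of libraries stands for independent cultures; the p-values below therefore reflect variation among these 6 libraries alone, which could be technical.

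METTL3 is the catalytic subunit of the complex that places N6-methyladenosine (m6A) on RNA. The genes described here act on DNA and histones instead. Writers and erasers add or remove acetyl and methyl groups, bromodomain proteins bind the acetylated tails, and remodelers of the SWI/SNF, ISWI and CHD families use ATP to move nucleosomes. In hepatic stellate cells, the liver cells that become matrix-producing myofibroblasts, the Polycomb methyltransferase EZH2 and class I histone deacetylases are known regulators of activation.

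Each deposited value is treated as a score, because the 6 columns share almost 1 distribution (median 552, maximum 72566), so that depth per library is unknown and a change common to every gene cannot be read from them. No member stood at the maximum or at 0, and member scores ran from 33 to 6830. Levels of different genes are not compared, since scores are not per length. METTL3 itself scored 274 and 256 with shMETTL3-1, 148 and 132 with shMETTL3-2, and 536 and 552 with shLuc, a fall of 1.04 on the log2 scale with shMETTL3-1 and 1.95 with shMETTL3-2. Of 14 stellate cell and fibroblast markers 10 had a row, among them PDGFRB, VIM and COL1A1; LRAT, DES, PDGFRA and HAND2 had none. The summed score of the 10 was 135152 to 135522 with shMETTL3-1, 95711 to 100715 with shMETTL3-2 and 161869 to 169625 with shLuc, most of it from COL1A1 (at the shared maximum in the shMETTL3-1 and shLuc libraries), VIM and TAGLN. Of the 9 tested, 5 fell with shMETTL3-1, and 1 rose and 5 fell with shMETTL3-2: ACTA2 fell with both (-3.20 with shMETTL3-1, -2.54 with shMETTL3-2), and COL3A1 rose with shMETTL3-2 (1.36). Of the hepatocyte markers 2 of 7 had a row: albumin (ALB) was between 130 and 250 in all libraries and was not called, and SERPINA1 scored 148 and 157 with shMETTL3-1, 88 and 97 with shMETTL3-2, and 104 and 92 with shLuc, a rise with shMETTL3-1 (0.63, adjusted p = 0.00576). Of 5 epithelial markers only KRT7 had a row, between 86 and 144, and it was not called. The summed score of the endothelial markers with a row, VWF and CDH5 (2 of 4), was 57 to 89 with shMETTL3-1, 53 to 55 with shMETTL3-2 and 236 to 268 with shLuc. At these low scores VWF fell with both hairpins (-1.15 with shMETTL3-1, -0.75 with shMETTL3-2), as did CDH5 (-2.23 with shMETTL3-1, -4.54 with shMETTL3-2). The sum of the leukocyte markers CD68, PTPRC and CD14 (3 of 5) was 1167 to 1514 with shMETTL3-1, 1446 to 1451 with shMETTL3-2 and 841 to 867 with shLuc. In the leukocyte sum CD68 rose with both hairpins (1150 and 1005 with shMETTL3-1, 1053 and 1083 with shMETTL3-2, and 392 and 360 with shLuc), whereas CD14 and PTPRC were not called and had lower means than in shLuc, PTPRC being at 0 in 1 shMETTL3-1 library. The part of these markers in the results was not tested.

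Changes are given on the log2 scale of the score plus 1, and a gene is said to have risen or fallen where limma gave a Benjamini-Hochberg adjusted p under 0.05 over all genes tested. With shMETTL3-1 against shLuc 30 members rose (30.3% of all genes tested did), 30 fell (28.4%) and 40 were not called, so that 60 of 100 were called, beside 58.7% of all genes tested. With shMETTL3-2 against shLuc 27 rose (30.8% of all genes tested did), 34 fell (28.8%) and 39 were not called, beside 59.6% called of all genes tested. Between the hairpins, shMETTL3-2 against shMETTL3-1, 28 members were higher (31.9% of all genes tested were), 42 lower (31.1%) and 30 not called, beside 63.0% of all genes tested. The members' median change was -0.01 with shMETTL3-1, -0.11 with shMETTL3-2 and -0.14 between the hairpins, and that of all genes tested was 0.01, 0.01 and -0.01. The number of called members was thus near the background in the comparisons with shLuc.

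Of the 100 members, 9 rose with both hairpins (15.7% of all genes tested did) and 12 fell with both (13.4%), and these 21 stand beside 29.1% of all genes tested that were called in the same direction with both. Another 19 were called in opposite directions by the hairpins, beside 10.5% of all genes tested. Of these, 11 rose with shMETTL3-1 and fell with shMETTL3-2 (5.45% of all genes tested), and 8 fell with shMETTL3-1 and rose with shMETTL3-2 (5.1%). All 19 also differed between the hairpins in the direct test. That outcome was set by the selection, since changes of opposite sign against shLuc lie further apart between the hairpins, and adds no support. Since both comparisons use the same shLuc libraries, these counts describe the list and carry no test of their own. The 19 members called with neither hairpin were ARID1B, ARID4A, BRD8, CHD4, CHD9, HDAC4, KAT6B, KAT7, KDM1A, KDM6A, KDM8, SETD1A, SETD4, SETD5, SETD5-AS1, SIRT4, SMARCA5, SMARCC1 and SMARCC2.

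**Figure D1:**
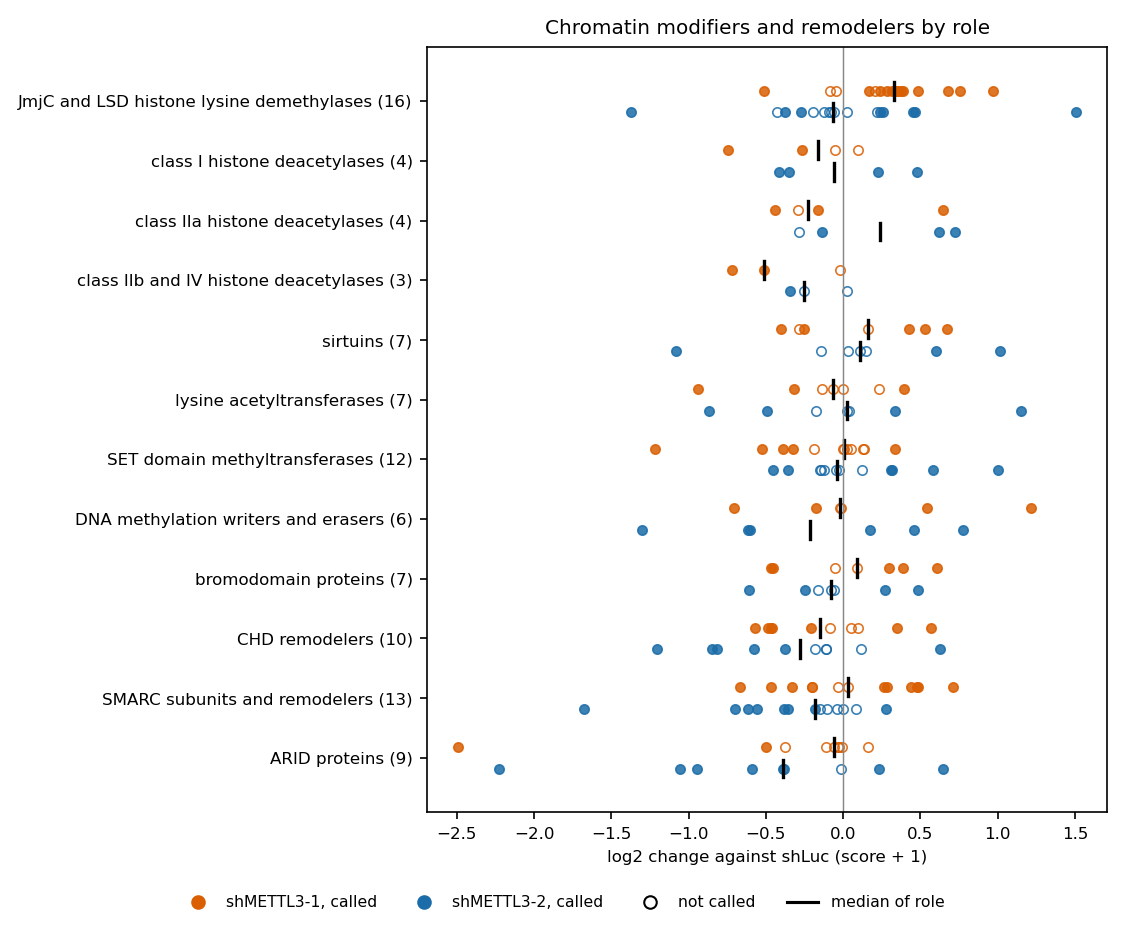
Change of each member against shLuc (x axis, log2 of score plus 1), by role (y axis, number of genes plotted in brackets), with shMETTL3-1 above shMETTL3-2 in each role; filled points were called, open points were not, and black bars are medians of the genes plotted. ARID5B lies farthest left with both hairpins (-2.49 with shMETTL3-1, -2.23 with shMETTL3-2), and the demethylases lie mostly right of 0 with shMETTL3-1 and on both sides of it with shMETTL3-2; KDM5D and SETD5-AS1 are counted in the text but not plotted.

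ARID5B fell most of the members with either hairpin. It encodes a DNA-binding protein that works with the demethylase PHF2 (chromosome 10, 63661059 to 63856703 in hg19, plus strand). Its scores were 698 and 682 with shMETTL3-1, 858 and 802 with shMETTL3-2, and 3846 and 3922 with shLuc. The 4 knockdown libraries lay far below both shLuc libraries, a fall of 5.62-fold with shMETTL3-1 (log2 -2.49, SE 0.06, adjusted p = 5.04e-07) and 4.68-fold with shMETTL3-2 (log2 -2.23, SE 0.06, adjusted p = 7.31e-07). The hairpins differed little beside that, by 0.27 (adjusted p = 0.00519). Its relative ARID5A, an RNA-binding member of the family, scored 510 and 502 with shMETTL3-1, 232 and 237 with shMETTL3-2, and 430 and 478 with shLuc, so it fell with shMETTL3-2 (-0.95, adjusted p = 7.68e-05), but was not called with shMETTL3-1 (0.16, adjusted p = 0.145).

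SMARCD1, which encodes BAF60A, a subunit of SWI/SNF complexes that binds transcription factors, had the next largest mean change among members called with both hairpins (chromosome 12, 50478755 to 50494495, plus strand). It scored 1422 and 1406 with shMETTL3-1, 700 and 702 with shMETTL3-2, and 2268 and 2216 with shLuc. The fall was 1.59-fold with shMETTL3-1 (log2 -0.66, SE 0.05, adjusted p = 3.85e-05) and 3.19-fold with shMETTL3-2 (log2 -1.68, SE 0.05, adjusted p = 1.13e-06). KDM1B, a flavin-dependent demethylase of histone H3 also called LSD2 (chromosome 6, 18155560 to 18222274, plus strand), rose most of the members with shMETTL3-2. Its scores were 344 and 424 with shMETTL3-1, 784 and 772 with shMETTL3-2, and 276 and 270 with shLuc, a rise of 1.40-fold with shMETTL3-1 (log2 0.48, SE 0.11, adjusted p = 0.00626) and 2.84-fold with shMETTL3-2 (log2 1.51, SE 0.11, adjusted p = 2.59e-05). The other members in the first 8 by mean change were KAT2B (-0.94 with shMETTL3-1, -0.87 with shMETTL3-2), SIRT5 (0.53 with shMETTL3-1, 1.02 with shMETTL3-2), KDM4B (0.97 with shMETTL3-1, 0.45 with shMETTL3-2), SIRT1 (-0.25 with shMETTL3-1, -1.08 with shMETTL3-2) and HDAC9 (0.64 with shMETTL3-1, 0.62 with shMETTL3-2).

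The 250 bases before the listed start of ARID5B, SMARCD1 and KDM1B, read from the GRCh37 genome, are shown because these genes led the falls and rises shared by both hairpins. In capitals is the TEAD motif GGAATG, searched on both strands, the element through which YAP and TAZ reach their targets.
ARID5B, chr10:63660809-63661058, plus strand: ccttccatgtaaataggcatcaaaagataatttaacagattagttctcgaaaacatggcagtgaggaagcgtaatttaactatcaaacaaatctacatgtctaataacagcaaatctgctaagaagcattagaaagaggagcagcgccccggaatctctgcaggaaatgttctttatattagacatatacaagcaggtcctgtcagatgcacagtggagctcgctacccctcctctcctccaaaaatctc
SMARCD1, chr12:50478505-50478754, plus strand: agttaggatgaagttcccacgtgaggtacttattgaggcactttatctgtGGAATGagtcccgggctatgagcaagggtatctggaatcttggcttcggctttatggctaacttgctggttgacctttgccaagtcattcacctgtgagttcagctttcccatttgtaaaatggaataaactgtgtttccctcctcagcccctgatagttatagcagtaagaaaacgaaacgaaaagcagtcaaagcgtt
KDM1B, chr6:18155310-18155559, plus strand: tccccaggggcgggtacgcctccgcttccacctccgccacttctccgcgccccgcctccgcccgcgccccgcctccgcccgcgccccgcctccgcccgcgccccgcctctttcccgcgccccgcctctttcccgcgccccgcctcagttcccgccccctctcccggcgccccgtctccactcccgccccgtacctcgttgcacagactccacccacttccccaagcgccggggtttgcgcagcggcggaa
ARID5B has 5 CG pairs in this window and SMARCD1 has 6, whereas KDM1B has 37. The median was 20 over all members and 17 over all genes tested, 36 over the 9 members that rose with both hairpins and 17 over the 12 that fell with both. SMARCD1 holds the TEAD motif, which 9 of 100 members (9.0%) and 10.1% of all genes tested hold in windows of the same length. The AP-1 motif TGACTCA, also searched on both strands, stood in 3.0% of members and 2.8% of all genes, and the CArG box in 3.0% and 1.23%. Each window depends on the start of the listed transcript, which was 7492 bases long for ARID5B, 3283 for SMARCD1 and 496 for KDM1B. A match describes letters only and is not a measured binding site.

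Histone lysine demethylases were 17 of the members, and with shMETTL3-1 11 of them rose and 1 fell, beside 30.3% and 28.4% of all genes tested. With shMETTL3-2 6 rose and 3 fell, beside 30.8% and 28.8% of all genes tested. Between the hairpins 3 were higher and 11 lower with shMETTL3-2, beside 31.9% and 31.1% of all genes tested. The group's median change was 0.34 with shMETTL3-1, -0.06 with shMETTL3-2 and -0.42 between the hairpins. KDM1B, KDM2B, KDM4A and KDM4B rose with both, as did 15.7% of all genes tested. The KDM4 enzymes act on lysines 9 and 36 of histone H3. KDM4B scored 1098 and 1144 with shMETTL3-1, 777 and 792 with shMETTL3-2, and 585 and 561 with shLuc (log2 0.97 with shMETTL3-1, adjusted p = 1.74e-05, and 0.45 with shMETTL3-2, adjusted p = 0.000603). KDM4A rose by 0.39 with shMETTL3-1 and 0.24 with shMETTL3-2. KDM2B, which brings Polycomb complexes to CpG islands, rose by 0.68 with shMETTL3-1 and 0.26 with shMETTL3-2, the second lost without shLuc replicate 2 (adjusted p = 0.0632). KDM4C fell with shMETTL3-1 (-0.51, adjusted p = 0.0383), at scores of 94 and 97 against 128 and 146 with shLuc. That call was lost without any 1 of the 4 libraries compared (adjusted p up to 0.164).

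The KDM5 genes remove methyl groups from lysine 4 of histone H3, the mark of active promoters. KDM5A scored 1913 and 1814 with shMETTL3-1, 566 and 615 with shMETTL3-2, and 1490 and 1570 with shLuc. It rose with shMETTL3-1 (0.28, SE 0.07, adjusted p = 0.00814), fell 2.59-fold with shMETTL3-2 (-1.37, SE 0.07, adjusted p = 5.59e-06) and was 3.15-fold lower with shMETTL3-2 than with shMETTL3-1 (-1.66, adjusted p = 2.31e-06). The rise was lost without shLuc replicate 1 or shMETTL3-1 replicate 1 (adjusted p up to 0.0651). KDM5C, its X-linked relative, also rose with shMETTL3-1 (0.24) and fell with shMETTL3-2 (-0.38). KDM5B scored 1482 and 1526 with shMETTL3-1, 792 and 902 with shMETTL3-2, and 905 and 879 with shLuc, so it rose with shMETTL3-1 (0.75, adjusted p = 0.00013) while the change with shMETTL3-2 was -0.08 (adjusted p = 0.399). All 3 were lower with shMETTL3-2 than with shMETTL3-1. The fourth KDM5 gene, Y-linked KDM5D, rose with shMETTL3-2 and narrowly missed the threshold with shMETTL3-1 (adjusted p = 0.0503).

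Other demethylases varied by gene. KDM3B, which acts on lysine 9, rose with shMETTL3-1 (0.17, adjusted p = 0.0246, lost without any 1 of the 4 libraries compared, adjusted p up to 0.114) and fell with shMETTL3-2 (-0.27). KDM2A, KDM3A and KDM4D rose with shMETTL3-1 (0.32, 0.37 and 0.36) and were not called with shMETTL3-2 (0.02, -0.12 and -0.06). The rise of KDM2A was lost without shMETTL3-1 replicate 2 (adjusted p = 0.057). KDM6B, an eraser of the Polycomb mark on lysine 27, rose with shMETTL3-2 (0.46, adjusted p = 0.00154), whereas its relative KDM6A was not called with either (0.21 with shMETTL3-1, 0.22 with shMETTL3-2). KDM1A, or LSD1, changed by 0.34 with shMETTL3-1 (adjusted p = 0.0632) and -0.09 with shMETTL3-2 (adjusted p = 0.572), its shLuc replicates lying apart at 1357 and 1708.

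**Figure D2:**
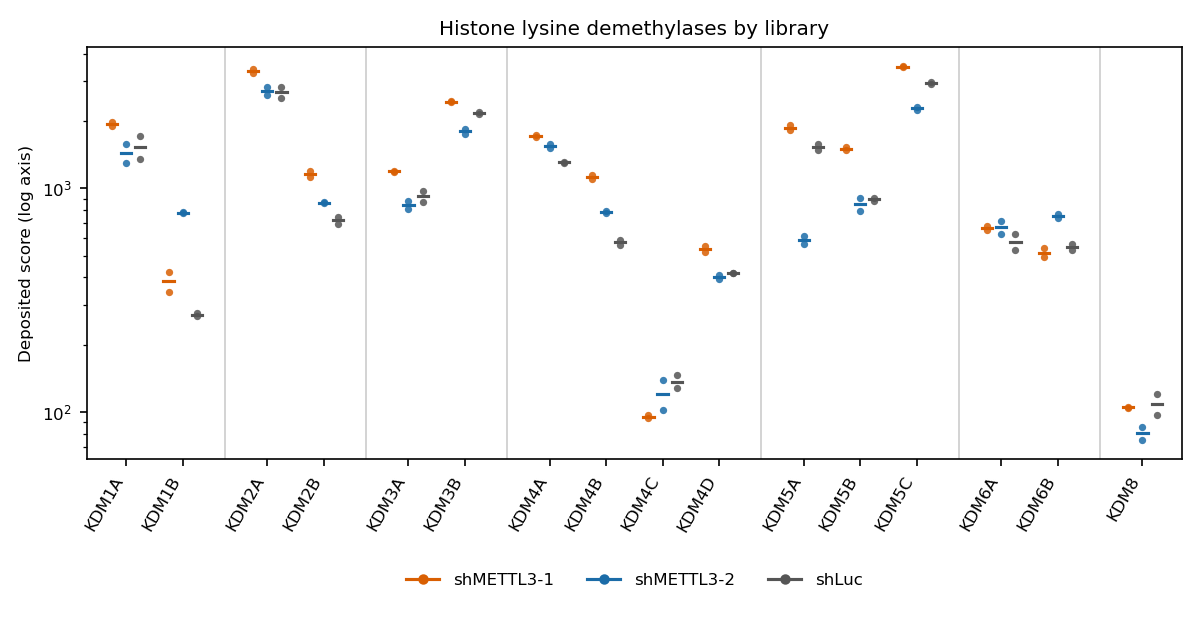
Deposited score (y axis, log scale) of 16 histone lysine demethylases in each library; points are libraries, bars are means of 2, and colours give the group in the order shMETTL3-1, shMETTL3-2, shLuc. KDM5A is lowest with shMETTL3-2 (566 and 615), and KDM1B is highest with it (784 and 772).

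Histone H3 methyltransferases and other SET domain proteins (12 members) included 1 rise and 4 falls with shMETTL3-1, and 4 rises and 2 falls with shMETTL3-2. Among all genes tested 30.3% rose and 28.4% fell with shMETTL3-1, and 30.8% rose and 28.8% fell with shMETTL3-2. EZH2, the catalytic subunit of Polycomb repressive complex PRC2 (chromosome 7, 148504475 to 148581375, minus strand), scored 226 and 280 with shMETTL3-1, 585 and 566 with shMETTL3-2, and 593 and 582 with shLuc. Only the shMETTL3-1 libraries were low, 2.33-fold below shLuc (log2 -1.22, SE 0.11, adjusted p = 7.7e-05), and shMETTL3-2 gave no call (-0.03, adjusted p = 0.828). EZH2 was thus 1.19 higher on the log2 scale with shMETTL3-2 than with shMETTL3-1 (adjusted p = 7.18e-05). EZH1, the alternative PRC2 enzyme, scored 470 and 474 with shMETTL3-1, 763 and 770 with shMETTL3-2, and 615 and 620 with shLuc, a fall of 0.39 on the log2 scale with shMETTL3-1 and a rise of 0.31 with shMETTL3-2. SETD8, which monomethylates histone H4, likewise fell with shMETTL3-1 (-0.32) and rose with shMETTL3-2 (0.58).

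SETD2 places the lysine 36 trimethyl mark on histone H3 that is known to guide the m6A writer complex to transcribed genes. It scored 1888 and 1802 with shMETTL3-1, 1476 and 1385 with shMETTL3-2, and 1862 and 1809 with shLuc. Both shMETTL3-2 libraries lay below the others (-0.36, adjusted p = 0.00128), and the change with shMETTL3-1 was 0.01 (adjusted p = 0.938). SETD3, which methylates a histidine of actin, rose with shMETTL3-2 to 1326 and 1158, against 626 and 612 with shLuc (2.00-fold, adjusted p = 4.64e-05), and had 615 and 646 with shMETTL3-1 (0.03, adjusted p = 0.809). Between the hairpins its change was 0.97 (adjusted p = 4.44e-05). SETDB1, a lysine 9 methyltransferase, rose with shMETTL3-2 (0.31, adjusted p = 0.0136, lost without shLuc replicate 1 or shMETTL3-2 replicate 2, adjusted p up to 0.0705). SETD7 fell with shMETTL3-1 (-0.52), SETD6 rose with it (0.34, lost without shLuc replicate 2 or either shMETTL3-1 library, adjusted p up to 0.108) and SETD1B fell with shMETTL3-2 (-0.45).

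Enzymes that write and erase DNA methylation (6 members) were each called in the direct comparison of the hairpins, where 63.0% of all genes tested were. TET1, TET2 and TET3 oxidise methylcytosine as the first step of demethylation. TET1 (chromosome 10, 70320413 to 70454239, plus strand) scored 226 and 196 with shMETTL3-1, 39 and 33 with shMETTL3-2, and 90 and 90 with shLuc. It rose 2.32-fold with shMETTL3-1 (log2 1.22, SE 0.16, adjusted p = 0.000514), fell 2.47-fold with shMETTL3-2 (-1.30, SE 0.16, adjusted p = 0.000359), and differed 5.73-fold between the hairpins (-2.52, adjusted p = 1.32e-05), the largest such difference among the members. These changes rest on low scores, and the 33 was the lowest of any member. TET2 moved in the same directions, with 1399 and 1288 with shMETTL3-1, 590 and 612 with shMETTL3-2, and 906 and 934 with shLuc (0.54 with shMETTL3-1, -0.61 with shMETTL3-2). TET3 moved in the reverse ones, with 802 in both shMETTL3-1 libraries, 1818 and 1790 with shMETTL3-2, and 1290 and 1331 with shLuc (-0.71 with shMETTL3-1, 0.46 with shMETTL3-2). The groups did not overlap for any of the 3. The share of all genes tested with groups apart was not counted, so this is not read as a trait of the TET genes. Replicates with an identical score, as for TET1 and TET3 here, give no measure of their own spread.

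DNMT1, the maintenance methyltransferase, changed little, with 3101 and 3124 with shMETTL3-1, 3962 and 3994 with shMETTL3-2, and 3550 and 3494 with shLuc (-0.18 with shMETTL3-1, adjusted p = 0.0107, and 0.18 with shMETTL3-2, adjusted p = 0.0112). The fall was lost without shLuc replicate 1 or shMETTL3-1 replicate 1 and the rise without shLuc replicate 2 (adjusted p up to 0.0538 in either). The de novo enzymes parted with shMETTL3-2: DNMT3A fell (227 and 207 against 346 and 314 with shLuc, -0.60, adjusted p = 0.00275) and DNMT3B rose (538 and 546 against 288 and 348, 0.77, adjusted p = 0.000569). With shMETTL3-1 neither was called (-0.02 for each).

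**Figure D3:**
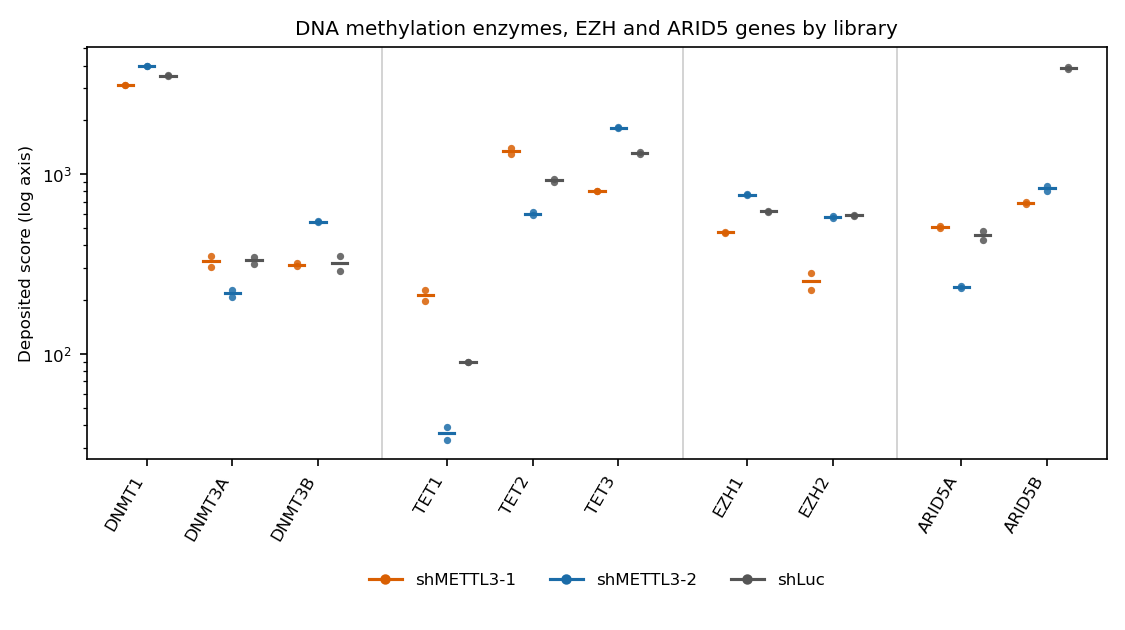
Deposited score (y axis, log scale) of the DNA methylation enzymes, EZH1, EZH2 and the ARID5 genes in each library, with groups in the order shMETTL3-1, shMETTL3-2, shLuc; points are libraries and bars are means of 2. TET1 and TET2 are highest with shMETTL3-1 and lowest with shMETTL3-2, TET3 has the reverse order, EZH2 is low with shMETTL3-1 alone (226 and 280) and ARID5B is high with shLuc alone (3846 and 3922).

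SMARC genes encode ATPases and accessory subunits of remodelers, mostly of SWI/SNF (13 members). With shMETTL3-1 6 rose and 4 fell (30.3% and 28.4% of all genes tested), and with shMETTL3-2 1 rose and 7 fell (30.8% and 28.8%). Of the members of this role 5 rose with shMETTL3-1 and fell with shMETTL3-2, as did 5.45% of all genes tested, namely SMARCA2, SMARCAD1, SMARCD2, SMARCD3 and SMARCE1. Both calls of SMARCAD1 (0.27 with shMETTL3-1, -0.18 with shMETTL3-2) were lost without some libraries (adjusted p up to 0.174 with shMETTL3-2). A SWI/SNF complex contains either SMARCA4 (BRG1) or SMARCA2 (BRM) as its ATPase. SMARCA4 scored 2780 and 2611 with shMETTL3-1, 2420 and 2408 with shMETTL3-2, and 1962 and 2016 with shLuc, a rise of 0.44 with shMETTL3-1 (adjusted p = 0.000319) and 0.28 with shMETTL3-2 (adjusted p = 0.00278). SMARCA2 scored 1001 and 1051 with shMETTL3-1, 438 and 465 with shMETTL3-2, and 769 and 702 with shLuc, a rise of 0.48 with shMETTL3-1 (adjusted p = 0.00118) and a fall of 0.70 on the log2 scale with shMETTL3-2 (adjusted p = 0.000181).

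SMARCD1, SMARCD2 and SMARCD3 encode the alternative BAF60 subunits of SWI/SNF. SMARCD2 scored 1972 and 1893 with shMETTL3-1, 774 and 828 with shMETTL3-2, and 1244 and 1116 with shLuc (0.71 with shMETTL3-1, adjusted p = 0.000147, and -0.56 with shMETTL3-2, adjusted p = 0.000475). SMARCD3 scored 322 and 338 with shMETTL3-1, 159 and 148 with shMETTL3-2, and 216 and 256 with shLuc (0.49 with shMETTL3-1, adjusted p = 0.00874, and -0.61 with shMETTL3-2, adjusted p = 0.00296), the rise being lost without shMETTL3-1 replicate 2 (adjusted p = 0.0643). SMARCD1, described above, fell with both, so that with shMETTL3-2 all 3 were lower than with shLuc, and with shMETTL3-1 only SMARCD1 was. The listed transcript of SMARCD3 spans 150935850 to 150936556 on chromosome 7, which is a part of the gene. The listed locus of SMARCA2 ends at 2060971 on chromosome 9, whereas exon 27 of 33 of its listed transcript holds position 2123886. Whether the loci of other members are complete was not counted. Of the core subunits, SMARCE1 rose by 0.29 with shMETTL3-1 and fell by 0.39 on the log2 scale with shMETTL3-2, SMARCB1 fell with shMETTL3-1 (-0.20, adjusted p = 0.017, lost without either shLuc library or shMETTL3-1 replicate 1), and the scaffolds SMARCC1 (0.03 with shMETTL3-1, -0.11 with shMETTL3-2) and SMARCC2 (-0.03 with shMETTL3-1, -0.00 with shMETTL3-2) were not called. The ISWI ATPase SMARCA1 fell with both (-0.33 with shMETTL3-1, -0.35 with shMETTL3-2), the first lost without shLuc replicate 1 or shMETTL3-1 replicate 2 (adjusted p up to 0.0949), and the other ISWI ATPase, SMARCA5, was not called (-0.20 with shMETTL3-1, 0.08 with shMETTL3-2).

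Of the 9 ARID genes, 2 fell and 7 were not called with shMETTL3-1 (28.4% of all genes tested fell), and 2 rose and 5 fell with shMETTL3-2 (30.8% and 28.8%). ARID1A, the DNA-binding subunit of the canonical SWI/SNF complex, fell with both hairpins. Its scores were 1758 and 1826 with shMETTL3-1, 1651 and 1722 with shMETTL3-2, and 2472 and 2604 with shLuc, so all 4 knockdown libraries lay below both controls (-0.50 with shMETTL3-1, adjusted p = 0.000209, and -0.59 with shMETTL3-2, adjusted p = 9.41e-05), and the hairpins were not called different (-0.09, adjusted p = 0.199). Its alternative ARID1B had scores between 845 and 914 in all 6 libraries and was not called in any comparison (adjusted p from 0.691 to 0.86). ARID2, of the polybromo form of the complex, fell with shMETTL3-2 (-0.39), as did ARID4B, a subunit of a SIN3 corepressor complex (-1.06, adjusted p = 0.0103). The listed locus of ARID4B shares 29824 bases with RBM34 on the same strand. ARID4B was not called without shLuc replicate 1 (adjusted p = 0.0504), and its shMETTL3-2 libraries scored 181 and 118. ARID3B rose with shMETTL3-2 (0.64), as did ARID3A (0.23, lost without shLuc replicate 1, adjusted p = 0.0504).

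**Figure D4:**
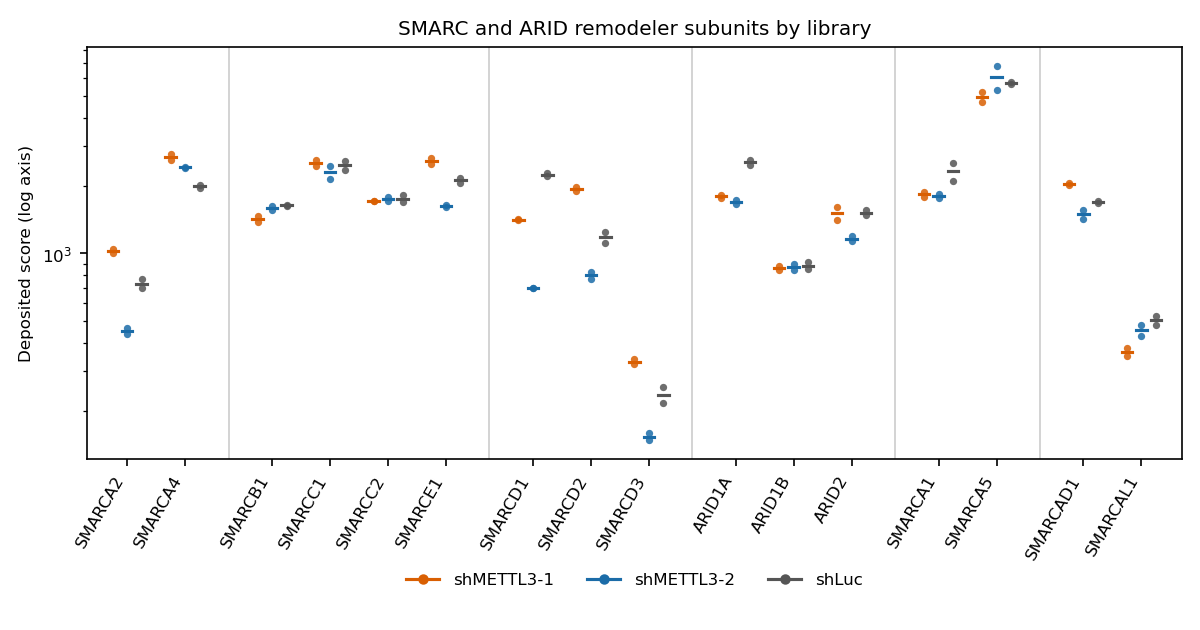
Deposited score (y axis, log scale) of SMARC and ARID subunits of remodelers in each library, in the order shMETTL3-1, shMETTL3-2, shLuc; points are libraries and bars are means of 2. SMARCD1 is lower in both knockdown groups, SMARCD2, SMARCD3 and SMARCA2 are above shLuc with shMETTL3-1 and below it with shMETTL3-2, and ARID1B lies between 845 and 914 throughout.

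CHD remodelers (10 members) had 2 rises and 5 falls with shMETTL3-1 (30.3% and 28.4% of all genes tested), and 1 rise and 5 falls with shMETTL3-2 (30.8% and 28.8%). CHD8, a remodeler that binds beta-catenin, scored 4068 and 3884 with shMETTL3-1, 1504 and 1538 with shMETTL3-2, and 2556 and 2802 with shLuc. It rose with shMETTL3-1 (0.57, adjusted p = 0.000177) and fell with shMETTL3-2 (-0.81, adjusted p = 3.21e-05). Between the hairpins it was 2.61-fold lower with shMETTL3-2 than with shMETTL3-1 (-1.39, adjusted p = 3e-06). CHD8 lies on chromosome 14 at 21853353 to 21905402, 60.9 kb from the listed METTL3 transcript. CHD3, an ATPase of the NuRD corepressor, went the other way, with 2129 and 2062 with shMETTL3-1, 4485 in both shMETTL3-2 libraries, and 2965 and 2834 with shLuc (-0.47 with shMETTL3-1, 0.63 with shMETTL3-2), while its NuRD relative CHD4 was not called with either hairpin (0.10 with shMETTL3-1, -0.11 with shMETTL3-2). CHD5, also of NuRD, had low scores, 42 and 44 with shMETTL3-2 against 112 and 90 with shLuc (-1.20, adjusted p = 0.000754). CHD1, CHD6 and CHD7 fell with both hairpins, with changes for CHD1 (-0.48 with shMETTL3-1, -0.58 with shMETTL3-2), CHD6 (-0.21 with shMETTL3-1, -0.85 with shMETTL3-2) and CHD7 (-0.46 with shMETTL3-1, -0.38 with shMETTL3-2). The fall of CHD6 with shMETTL3-1 was lost without shLuc replicate 1 or shMETTL3-1 replicate 2 (adjusted p up to 0.0722), and both of CHD7 were lost without shLuc replicate 2 and other libraries (adjusted p up to 0.174).

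Bromodomain proteins (7 members) had 3 rises and 2 falls with shMETTL3-1 (30.3% and 28.4% of all genes tested) and 2 of each with shMETTL3-2 (30.8% and 28.8%), which is near the background. BRD3, which binds acetylated histones, rose with both (0.61 with shMETTL3-1, 0.27 with shMETTL3-2), and BRD2 fell with shMETTL3-2 (-0.25, adjusted p = 0.0107, lost without shLuc replicate 1, adjusted p = 0.0671). BRD7, of the polybromo SWI/SNF complex, rose with both (0.30 with shMETTL3-1, 0.48 with shMETTL3-2), and BRD1, a scaffold of acetyltransferase complexes, fell with both (-0.46 with shMETTL3-1, -0.61 with shMETTL3-2). The rise of BRD7 with shMETTL3-1 was lost without shLuc replicate 1 or either shMETTL3-1 library (adjusted p up to 0.17).

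Lysine acetyltransferases (7 members) had 1 rise and 2 falls with shMETTL3-1 (30.3% and 28.4% of all genes tested) and 2 of each with shMETTL3-2 (30.8% and 28.8%). KAT5, or TIP60, which acetylates histones and the DNA damage kinase ATM, scored 708 and 740 with shMETTL3-1, 1740 and 1790 with shMETTL3-2, and 817 and 772 with shLuc. It rose 2.22-fold with shMETTL3-2 (log2 1.15, SE 0.06, adjusted p = 8.01e-06) and was not called with shMETTL3-1 (-0.13, adjusted p = 0.0967). Its listed locus shares 4709 bases with RNASEH2C on the other strand, and the strand setting of the counting is not given in the sources used here, so reads of the pair cannot be told apart. In all, 9 members overlap another listed gene, 6 of them on the other strand. Of these, SETD5-AS1 shares 22861 bases with THUMPD3, KDM5A shares 182 with CCDC77 and HDAC9 shares 90 with MIR1302-6. On the same strand, ARID4B shares 29824 with RBM34, CHD2 shares 15450 with AC013394.2 and HDAC10 shares 5812 with MAPK12. KAT2A and KAT2B are alternative enzymes of SAGA-type complexes. KAT2B scored 92 and 123 with shMETTL3-1, 118 and 106 with shMETTL3-2, and 238 and 176 with shLuc, lower in all 4 knockdown libraries (-0.94 with shMETTL3-1, adjusted p = 0.00531, and -0.87 with shMETTL3-2, adjusted p = 0.00741, the second lost without shLuc replicate 1 at adjusted p = 0.0501). KAT2A rose with shMETTL3-1 (0.40) and not with shMETTL3-2 (0.02). KAT8, which acetylates histone H4, fell with shMETTL3-1 (-0.32) and rose with shMETTL3-2 (0.33), both calls being lost without either shLuc library (adjusted p up to 0.119), and KAT6A fell with shMETTL3-2 (-0.49).

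Histone deacetylases of the zinc-dependent classes were 11 members. With shMETTL3-1 1 rose and 6 fell (30.3% and 28.4% of all genes tested), and with shMETTL3-2 4 rose and 4 fell (30.8% and 28.8%). HDAC9, a class IIa enzyme that acts as a corepressor of MEF2, was the member of these classes that rose with both, at 894 and 1018 with shMETTL3-1, 914 and 963 with shMETTL3-2, and 646 and 577 with shLuc (0.64 with shMETTL3-1, adjusted p = 0.000679, and 0.62 with shMETTL3-2, adjusted p = 0.000793). HDAC2 fell with both (-0.27 with shMETTL3-1, adjusted p = 0.0117, and -0.41 with shMETTL3-2, adjusted p = 0.00152), with 2188 in both shMETTL3-1 libraries, 2067 and 1893 with shMETTL3-2, and 2772 and 2508 with shLuc. Its first call was lost without shLuc replicate 1 or either shMETTL3-1 library (adjusted p up to 0.0726). The close relative HDAC1 rose with shMETTL3-2 (0.23, adjusted p = 0.0127, lost without shLuc replicate 1 or shMETTL3-2 replicate 1), and HDAC3, another class I enzyme, fell with it (-0.35, adjusted p = 0.00614). HDAC5 scored 635 and 661 with shMETTL3-1, 1464 and 1442 with shMETTL3-2, and 970 and 795 with shLuc (-0.44 with shMETTL3-1, 0.73 with shMETTL3-2). HDAC8 moved in the same directions at low scores of 102 and 86 with shMETTL3-1, 198 and 246 with shMETTL3-2, and 152 and 164 with shLuc (-0.75 with shMETTL3-1, 0.48 with shMETTL3-2), and its rise was lost without either shLuc library or shMETTL3-2 replicate 2. HDAC6, the tubulin deacetylase, fell with shMETTL3-1 (-0.51), as did HDAC11 (-0.72). HDAC7 fell with both by small amounts (-0.16 with shMETTL3-1, -0.14 with shMETTL3-2), the first lost without any 1 of the 4 libraries compared and the second without any 1 of the 6.

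Sirtuins use NAD and work in the nucleus, the cytoplasm or mitochondria (7 members). With shMETTL3-1 3 rose and 2 fell, beside 30.3% and 28.4% of all genes tested, and with shMETTL3-2 2 rose and 1 fell, beside 30.8% and 28.8%. SIRT1, a nuclear deacetylase, scored 416 and 386 with shMETTL3-1, 234 and 217 with shMETTL3-2, and 490 and 466 with shLuc. It fell 2.12-fold with shMETTL3-2 (log2 -1.08, SE 0.09, adjusted p = 4.99e-05), while its fall with shMETTL3-1 (-0.25, adjusted p = 0.04) was lost without any 1 of the 4 libraries compared (adjusted p up to 0.187). SIRT6, which acts on chromatin, rose with shMETTL3-2 (0.60) and changed by -0.29 with shMETTL3-1 (adjusted p = 0.0531). Among the mitochondrial sirtuins, SIRT3 rose with shMETTL3-1 (349 and 306 against 199 and 210 with shLuc, 0.67) but was not called with shMETTL3-2 (-0.14), and SIRT5 rose with both at scores under 100 (0.53 with shMETTL3-1, 1.02 with shMETTL3-2), the first call being lost without any 1 of the 6 libraries (adjusted p up to 0.193). SIRT2, mainly cytoplasmic, rose with shMETTL3-1 (0.42), and SIRT7, of the nucleolus, fell with it (-0.40).

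**Figure D5:**
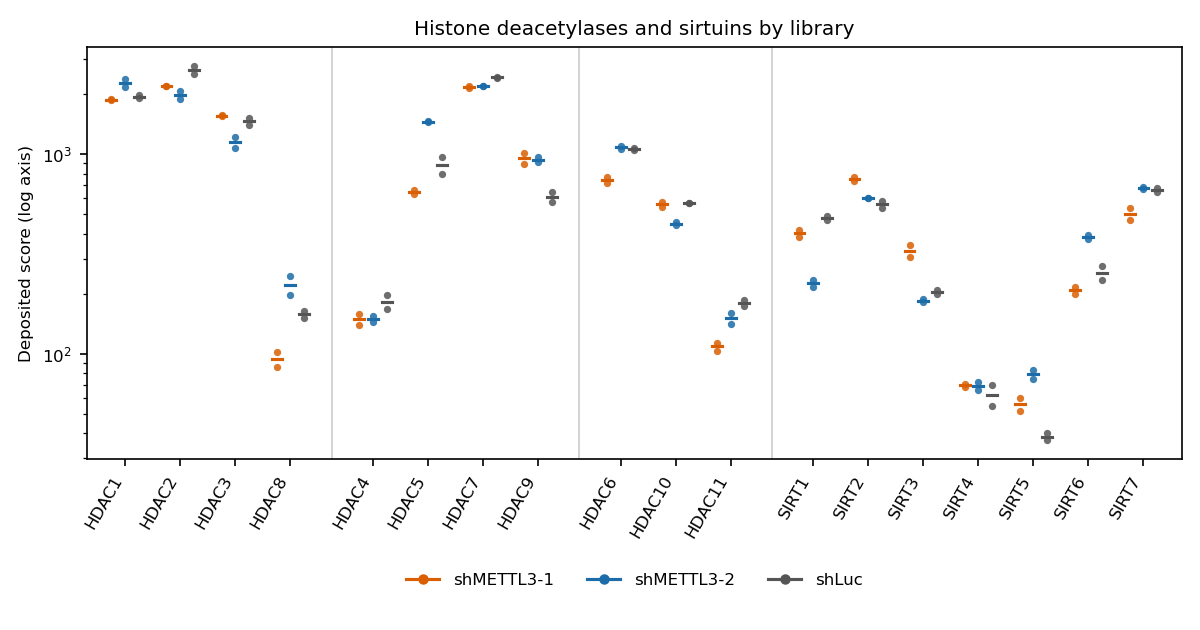
Deposited score (y axis, log scale) of 11 histone deacetylases and 7 sirtuins in each library, in the order shMETTL3-1, shMETTL3-2, shLuc; points are libraries and bars are means of 2. HDAC9 is above shLuc in both knockdown groups, HDAC5 and HDAC8 are lowest with shMETTL3-1 and highest with shMETTL3-2, and SIRT1 is lowest with shMETTL3-2 (234 and 217).

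Genes of the same complexes that carry other names were counted from a separate list of 145 symbols, of which 132 were tested. With shMETTL3-1 41 rose and 44 fell (30.3% and 28.4% of all genes tested), with shMETTL3-2 36 rose and 47 fell (30.8% and 28.8%), and 15 rose and 24 fell with both (15.7% and 13.4%). PBRM1, the polybromo subunit that works with ARID2 and BRD7, had scores of 760 and 750 in the shMETTL3-1 libraries, 1042 and 1020 in the shMETTL3-2 libraries and 2711 in both shLuc libraries, and fell with each hairpin (-1.84 with shMETTL3-1, -1.39 with shMETTL3-2). Among 24 Polycomb partners 2 rose and 4 fell with both hairpins (15.7% and 13.4% of all genes tested), the falls including EED, the PRC2 subunit that binds the mark (-0.98 with shMETTL3-1, -0.70 with shMETTL3-2), and PHF19 (-0.71 with shMETTL3-1, -1.32 with shMETTL3-2). TDG, which excises the TET products of methylcytosine, fell with both (-1.59 with shMETTL3-1, -1.30 with shMETTL3-2), as did UHRF1, which brings DNMT1 to replicated DNA (1759 and 1676 with shMETTL3-1, 2016 and 1801 with shMETTL3-2, and 3432 and 3454 with shLuc). Of 24 tested acetyltransferase and SAGA partners 6 rose with both hairpins, as did 15.7% of all genes tested, with TAF5L (0.72 with shMETTL3-1, 0.92 with shMETTL3-2) and EPC1 (0.95 with shMETTL3-1, 0.65 with shMETTL3-2) changing most.

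m6A itself was not measured in these libraries. METTL3 methylates adenosine within short motifs, of which GGACT, with its last base a U in RNA, is a common form, and it does so most densely near the ends of coding regions. The last GGACT of the coding exons with 12 bases on each side within 1 exon is shown, with the motif in capitals, for ARID5B, which led the shared changes, and for TET1, KDM5A and CHD8, which led the differences between hairpins.
ARID5B, chr10:63851221-63851249, plus strand, exon 10 of 10: aacgagaaccatGGACTtaattacacgcc
TET1, chr10:70442661-70442689, plus strand, exon 10 of 12: cactgcttgcctGGACTtctgtgctcatc
KDM5A, chr12:402278-402306, minus strand, exon 27 of 28: agtgaaaggaaaGGACTcttcagagaaga
CHD8, chr14:21853825-21853853, minus strand, exon 38 of 38: tagctcagaaagGGACTtctcactcattg
The positions are in hg19 (GRCh37), with exons of the listed transcripts in a GENCODE annotation lifted to that build. A sequence was found for the listed transcript of 99 members, and 88.9% of these held at least 1 GGACT on the sense strand, beside 83.7% of 11920 tested genes. The median length was 4213 bases for members and 2490 for all genes. Some listed transcripts were short, among them those of KDM1B (496 bases), KDM4B (504), KDM6B (362), SMARCD3 (468) and SETDB1 (587). Their motif counts cover only those bases. Per kilobase the median was 0.824 motifs in members and 0.931 in all genes, 0.805 in the 9 members that rose with both hairpins and 0.705 in the 12 that fell with both. It was 0.866 in the 11 that rose with shMETTL3-1 and fell with shMETTL3-2, and 0.891 in the 8 of the reverse pattern. These are descriptions of letters, with no measurement of methylation at any of them.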

How the data were processed

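RNA-seq values of 6 LX2 libraries (shMETTL3-1, shMETTL3-2 and shLuc, 2 each) were analysed. Per the labels' protocols the genome build was hg19; the submitters' processing notes list DESeq2 and do not say what it was used for. The aligner, counting tool and gene filter were not given in the sources used here. Values as deposited are whole numbers, but the columns share a maximum of 72566, totals of 16535130 to 16536605 and identical values at 87.3% of ranks, so each was treated as a score, and neither depth nor counting error can be computed. The log2 of score plus a pseudocount of 1 was fitted for genes with a mean of at least 50 (12413) with limma 3.58.1 (R 4.3.3) over all 6 libraries. The model had a mean for each group and 3 contrasts, its empirical Bayes step was robust and followed the trend of variance with mean, and two-sided p-values were adjusted by the Benjamini-Hochberg method (threshold 0.05). The procedure was tested on simulated data with independent noise and changes in 1 group alone. The simulated columns were not made to share 1 distribution, so that feature of the scores was not covered. The outcome is not reported here and lends no weight to the calls. Members and gene lists were chosen with earlier results of these data known. Text names METTL3, the 8 members with the largest mean change shared by both hairpins, the 8 with the largest difference between hairpins, all called in opposite directions, 27 fixed members, up to 3 more per role and up to 2 partners per list; SMARCA5-AS1, KDM5D and members named only in lists or with a call of their own fall outside it and were added after their values were seen. Upstream windows and transcripts were read from GRCh37. Alternatives changed the pseudocount, filters, trend, moderation, libraries in the fit, replicate block, transcript length, genes at the maximum and threshold. Some genes that the naming rule covers are counted but not reported here.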

Additional observations from a re-analysis of the deposited data

Results flagged for a closer look

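Each of the 19 members called in opposite directions by the hairpins was marked, with an adjusted p under 0.05 by limma between shMETTL3-2 and shMETTL3-1. That call followed from the opposite changes against shLuc and adds no support to them. On the log2 scale, shMETTL3-2 was lower than shMETTL3-1 for TET1 (-2.52), KDM5A (-1.66), CHD8 (-1.39), SMARCD2 (-1.27), SMARCA2 (-1.18), TET2 (-1.16), SMARCD3 (-1.10), SMARCE1 (-0.67), KDM5C (-0.62), SMARCAD1 (-0.45) and KDM3B (-0.44). It was higher for HDAC8 (1.23), TET3 (1.17), HDAC5 (1.16), CHD3 (1.10), SETD8 (0.90), EZH1 (0.70), KAT8 (0.65) and DNMT1 (0.35). METTL3 itself was lower with shMETTL3-2 (148 and 132) than with shMETTL3-1 (274 and 256), and the part of this in the differences was not tested. With 2 libraries in each group, no library could be tested for standing apart from the others.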

How the results depend on the processing

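The counts of called members stayed within 1.5 times under every alternative but a minimum change and a stricter threshold. The share of all genes tested was not counted under the alternatives, so the counts below have no background beside them. With a change of 0.5 or more also required on the log2 scale, 23 members were called with shMETTL3-1, 31 with shMETTL3-2 and 36 between the hairpins, 6 in the same direction with both and 4 in opposite directions, and 40, 45 and 45 of the genes of other name. At an adjusted p under 0.01, 12 members were called in the same direction with both. Without each library in turn, the called members numbered 47 to 62 with shMETTL3-1, 53 to 59 with shMETTL3-2 and 60 to 70 between the hairpins, 14 to 18 in the same direction and 14 to 18 in opposite ones. The genes of other name numbered 67 to 86, 73 to 79 and 73 to 89, and the METTL3 change was -1.084 to -0.987 with shMETTL3-1 and -2.035 to -1.871 with shMETTL3-2. Where a group was left with 1 library, that library was taken to vary like the others. Of 191 called values of members, 145 were kept without each library in turn and 46 were lost without some library, and 0 reversed under any alternative. Replicate numbers were not treated as pairs in the main fit, and the labels do not say whether they mark pairs. Replicate differences of the groups had correlations of 0.0153, 0.0371 and 0.0472. A replicate block called 64, 63 and 73 members, 22 in the same direction and 20 in opposite ones. The shared distribution of the scores hides depth and any change common to all genes.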
